A study of Mus musculus with 10 samples.

Results

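The Elavl, Celf and Ptbp families of RNA-binding proteins, with Fmr1, were followed in the hippocampus of 30-month-old mice. Of 10 genes asked for, 9 had a probe set, meaning several short probes read as one value, whose annotation names that gene alone: Elavl1, Elavl2, Elavl3, Elavl4, Celf1, Celf2, Celf4, Ptbp2 and Fmr1. They carry 13 of the 12488 probe sets on the array, and 9 of the 8252 genes named from it. Ptbp1 has no such probe set and is not analysed here. The genes were picked by name for a shared role, but with the diet changes of these arrays already known, so what was chosen from those values, above all the falls of Ptbp2 and Elavl2, is given as a description and tests nothing. Celf1, Celf2, Ptbp2 and Fmr1 have 2 probe sets each, and the other 5 genes have 1.

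Hippocampal RNA came from 5 male C57BL/6 mice on a calorie restricted (CR) diet and 5 male C57BL/6 mice on a control diet, all aged 30 months, with each mouse on an Affymetrix array of its own. How far intake was cut, and from what age, was not given in the labels used here. The tissue was taken whole, so neurons, glia and vessels share each value, and in such a sample fewer cells of a type and less RNA per cell cannot be told apart.

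Elavl proteins, also called Hu proteins, bind AU-rich and U-rich stretches of RNA, where they stabilise messages and steer splicing and translation. Elavl1 (HuR) is made in most cell types, while Elavl2 (HuB), Elavl3 (HuC) and Elavl4 (HuD) are largely neuronal. Celf proteins bind GU-rich RNA and act in splicing and decay, and Celf4 is made mainly in neurons. Ptbp2 (nPTB) is the neuronal counterpart of the splicing repressor Ptbp1 and takes its place as neurons are born. Fmr1 encodes FMRP, a polysome-bound regulator of translation whose loss causes fragile X syndrome.

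Transcripts of Ptbp2, Elavl2 and Celf2 were lower in CR hippocampus, and in each the signals of all 5 CR mice lay below those of all 5 control mice. Against the median probe set, Celf2 was 4.85-fold lower by one of its probe sets, Elavl2 3.31-fold lower and Ptbp2 2.58-fold lower. A further Celf2 probe set and a further Ptbp2 probe set, the latter too dim to be tested, overlapped between diets. Measures of RNA quality and of added control RNA also differed between diets. With both as covariates, 0 of 7453 probe sets passed. Elavl1, Elavl4 and Fmr1 overlapped between diets, Celf4 was higher in every CR mouse without passing the fit, and Elavl3 was above all control mice in 3 CR mice and below them all in 2.

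The stretches of 150 bases before the transcription start are shown for the 3 genes that were lower together and for Elavl3, the family member that went both ways. They are read 5′ to 3′ on the gene's strand, from RefSeq on build GRCm38.p6, at the most upstream annotated start. Ptbp2 and Elavl3 have 1 annotated start in that table, Celf2 has 5 and Elavl2 has 6. Capitals mark matches, on either strand, to the GC box GGGCGG that Sp1 factors bind, to the CCAAT box, to the TATA box TATAAA, or to the cyclic AMP element TGACGTCA.
Ptbp2 (chr3:119783389-119783538, minus strand): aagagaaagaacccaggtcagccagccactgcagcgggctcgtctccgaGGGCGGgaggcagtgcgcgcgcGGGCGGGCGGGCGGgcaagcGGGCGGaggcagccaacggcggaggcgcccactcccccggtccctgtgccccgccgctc
Elavl2 (chr4:91399985-91400134, minus strand): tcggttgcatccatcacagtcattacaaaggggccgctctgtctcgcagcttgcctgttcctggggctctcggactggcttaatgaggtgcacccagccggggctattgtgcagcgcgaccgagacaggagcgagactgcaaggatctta
Celf2 (chr2:7396199-7396348, minus strand): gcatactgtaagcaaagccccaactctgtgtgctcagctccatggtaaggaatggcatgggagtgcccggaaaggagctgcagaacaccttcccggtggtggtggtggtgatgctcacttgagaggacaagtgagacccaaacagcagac
Elavl3 (chr9:22052024-22052173, minus strand): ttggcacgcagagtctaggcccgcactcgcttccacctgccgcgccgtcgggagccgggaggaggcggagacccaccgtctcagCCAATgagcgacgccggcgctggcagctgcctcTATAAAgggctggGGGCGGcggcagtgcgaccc

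Ptbp2 held 5 GC box matches in its 150 bases, 3 of them overlapping in one run, and 76.7% of the bases were G or C. Elavl3 held 1 GC box, 1 CCAAT box and 1 TATA box, with 71.3% G or C. Elavl2 and Celf2 held none of the 4 motifs in the stretches shown, with 58.7% and 55.3% G or C. Over all 32851 promoter windows in the table, each of 300 bases with 250 before the start, 35.7% hold a GC box, 37.4% a CCAAT box, 13.6% a TATA box and 1.79% the cyclic AMP element. In the windows of the same 300 bases Ptbp2 had 6 GC boxes, Elavl3 2 GC boxes, 1 CCAAT box and 1 TATA box, Celf2 1 TATA box and Elavl2 no match to any of the 4. No motif was common to the 3 genes that were lower. A match is a run of letters only, and no binding was measured here.

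Signals are the authors' MAS5 intensities on a linear scale, and changes are on the log2 scale, CR minus control. The median probe set changed by -0.15, so changes are given relative to that value, with standard errors (SE) of the limma fit over 7453 probe sets. A probe set passed at an adjusted p under 0.05, a test of the change before the median was taken off. Of those 7453, 306 were higher, or 4.11%, and 577 lower, or 7.74%, which makes 11.8% in either direction. With each array centred on its median, 575 were higher and 266 lower, and under quantile normalization 322 were higher and 279 lower, so the balance of directions depends on the scaling.

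The arrays differed between diets in quality too. The Gapdh 3′ signal was 1.24 to 160.7 times the 5′ signal in CR mice, highest in arrays 3 (82.7 times) and 5 (160.7 times), against 0.815 to 1.53 times in control mice. Averaged with Actb, the log2 ratio was 0.79, 0.78, 5.20, 1.52 and 6.11 in CR arrays 1 to 5, and -0.12 to 0.45 in control arrays. This ratio climbs when RNA is broken or copied incompletely. Spike-in signal, from RNA added to every sample, was 12.41 to 13.67 on the log2 scale in CR and 10.50 to 11.80 in control mice. These measures go with the diet in every result given here, and their part in it was not tested beyond the fits named.

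**Figure D1:**
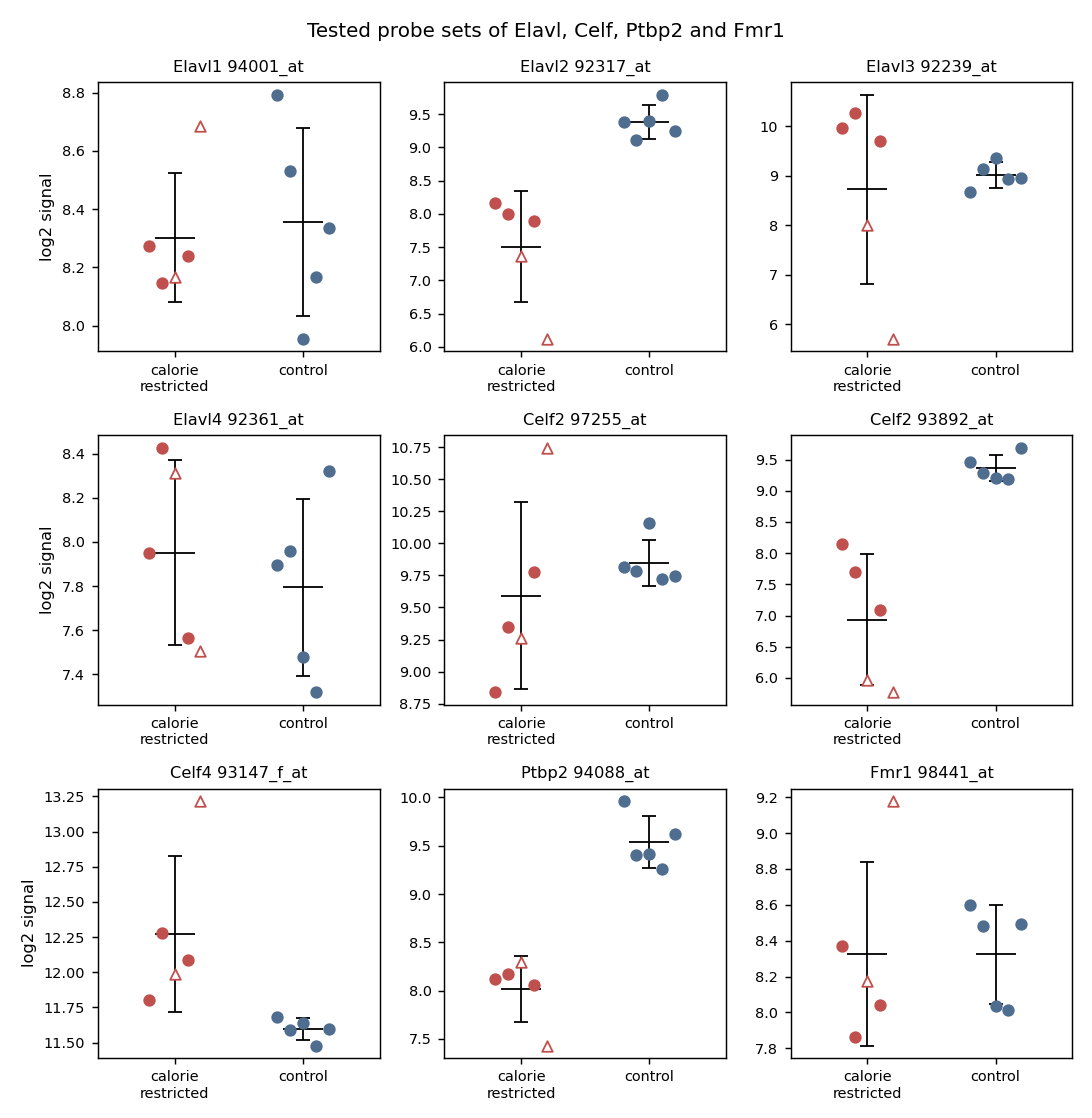
Log2 signal (vertical axes, each with its own range) of the 9 tested probe sets in 5 CR mice on the left and 5 control mice on the right of each panel. Each symbol is a mouse, open triangles are CR arrays 3 and 5, and the bar with whiskers is the mean ± SD. Elavl2, the brighter Ptbp2 set and the dimmer Celf2 set have all CR mice below all control mice, and Celf4 has them all above.

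Among the neuronal Elavl genes, Elavl2 was the one that was lower throughout. Its signal was 287.4, 255.8, 164.5, 238.9 and 69.4 in CR arrays 1 to 5, against 668.2, 553.7, 674.9, 889.1 and 607.1 in control arrays 1 to 5. The highest CR mouse was thus at 287.4 and the lowest control mouse at 553.7, with no overlap, and arrays 3 and 5 were the lowest of all. Mean log2 signal was 7.51 ± 0.83 in CR and 9.39 ± 0.26 in control mice (SD, n = 5 each), a relative change of -1.73 ± 0.35 (SE), which passed. Without CR arrays 3 and 5 it was -1.26, and with the 3′ over 5′ measure as a covariate -0.97. It passed in both, but with spike-in signal added as a covariate it was -0.59 and did not pass.

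Elavl3, an early and lasting marker of neurons, did not follow Elavl2. Its signal was 1004.9, 1233.9, 258.1, 837.6 and 51.96 in CR arrays 1 to 5, against 405.9, 562.5, 659.5, 488.5 and 499.7 in control arrays 1 to 5. CR mice 1, 2 and 4 exceeded every control mouse, and mice 3 and 5 lay below every control mouse. The log2 mean was 8.73 ± 1.91 in CR and 9.01 ± 0.26 in control mice (SD, n = 5 each), so the spread among CR mice was larger than any difference, and the relative change of -0.13 ± 0.71 (SE) did not pass. The 2 low mice are those whose 3′ over 5′ ratio stands apart. Without them the change was 1.08, and with that ratio as a covariate 1.73, higher in CR mice and past the threshold in both fits. With spike-in signal added as a covariate it was 1.98 and did not pass.

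Elavl4, which stabilises messages of growing axons such as that of Gap43, had a signal of 247.2, 344.1, 317.4, 189.0 and 181.8 in CR arrays 1 to 5, against 237.8, 248.9, 178.3, 159.6 and 319.6 in control arrays 1 to 5. The diets overlapped, with 1 CR mouse above all control mice. Its relative change was 0.31 ± 0.28 (SE). For the ubiquitous Elavl1 the signal ran from 283.3 to 412.0 with a median of 302.0 in CR mice, and from 247.8 to 443.9 with a median of 322.8 in control mice. All CR values of Elavl1 lay within the control range, and the change was 0.10 ± 0.21 (SE). Neither gene passed, with or without arrays 3 and 5.

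Ptbp2, a splicing repressor of neurons, was lower in all CR mice by the brighter of its 2 probe sets. That set had 278.7, 287.9, 314.8, 266.8 and 172.7 in CR arrays 1 to 5, against 998.9, 680.0, 684.8, 614.7 and 789.9 in control arrays 1 to 5. No CR mouse came near the lowest control mouse at 614.7. Mouse 3, with a log2 3′ over 5′ ratio of 5.20, was the highest of the CR mice, and mouse 5, with 6.11, was the lowest. The log2 mean was 8.02 ± 0.34 in CR and 9.54 ± 0.27 in control mice (SD, n = 5 each). The relative change of -1.37 ± 0.21 (SE) passed, and it was -1.32 without arrays 3 and 5 and -1.25 with the 3′ over 5′ covariate, passing in both. With spike-in signal added as a covariate it was -1.66 and did not pass.

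The dimmer Ptbp2 probe set lay below the filter on signal, with log2 means of 5.93 in CR and 6.32 in control mice, and was not tested. It had 35.5, 46.9, 41.5, 71.7 and 171.3 in CR arrays 1 to 5, against 112.1, 44.9, 77.9, 70.1 and 117.7 in control arrays 1 to 5. The diets overlapped, with 2 CR mice below and 1 above the control range. In a fit with no filter its relative change was -0.16 ± 0.49 (SE). Background was not analysed here, so whether these values stand above it is not known.

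Celf2, which regulates splicing in neurons and muscle, gave unlike values from its 2 tested probe sets. The dimmer set had 282.3, 208.4, 62.4, 136.8 and 54.5 in CR arrays 1 to 5, against 701.4, 626.8, 592.9, 582.7 and 825.6 in control arrays 1 to 5. All CR mice were below all control mice, and arrays 3 and 5 were again lowest. The log2 mean was 6.93 ± 1.05 in CR and 9.37 ± 0.21 in control mice (SD, n = 5 each), a relative change of -2.28 ± 0.42 (SE), which passed. It was -1.62 without arrays 3 and 5 and -1.30 with the 3′ over 5′ covariate, and passed in both. With spike-in signal added as a covariate it was -1.92 and did not pass.

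The brighter Celf2 set had 457.6, 650.2, 612.7, 877.9 and 1716.0 in CR arrays 1 to 5, against 900.0, 883.6, 1145.4, 845.8 and 858.6 in control arrays 1 to 5. Here 3 CR mice were below and 1, array 5, was above every control mouse. Its change of -0.10 ± 0.30 (SE) did not pass. The log2 signal of the brighter set minus that of the dimmer was 0.70, 1.64, 3.30, 2.68 and 4.98 in CR arrays 1 to 5 and 0.06 to 0.95 in control arrays, so the 2 sets drew furthest apart in arrays 5 and 3. With both sets averaged, Celf2 changed by -1.19 ± 0.20 (SE) and passed. Which transcript forms the sets match was not analysed here.

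**Figure D2:**
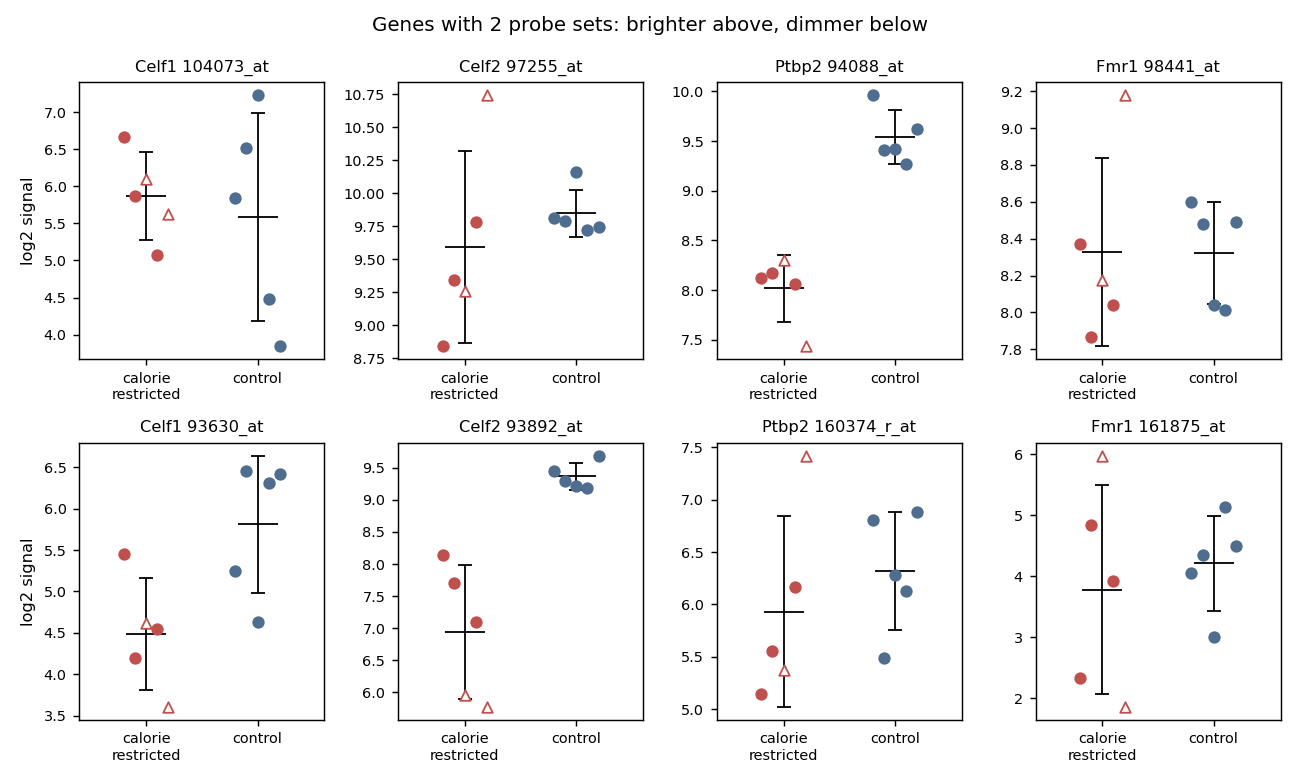
Log2 signal (vertical axes, each with its own range) in the 4 genes with 2 probe sets, the brighter set above and the dimmer below, CR mice left and control mice right. Symbols are mice, open triangles are CR arrays 3 and 5, and bars are mean ± SD. The dimmer Celf2 set and the brighter Ptbp2 set separate the diets, while the other sets of both genes overlap.

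Celf4, a Celf protein of excitatory neurons whose loss in mice causes seizures, was higher in the CR mice by its 1 probe set. Whether the probes of that set match other transcripts as well was not analysed here. The signal was 3573.9, 4963.0, 4055.7, 4356.2 and 9525.1 in CR arrays 1 to 5, against 3292.8, 3082.7, 3188.7, 2853.7 and 3099.5 in control arrays 1 to 5. Every CR mouse was above every control mouse, and array 5 was far above the rest. The log2 mean was 12.27 ± 0.55 in CR and 11.60 ± 0.08 in control mice (SD, n = 5 each). The relative change of 0.83 ± 0.24 (SE) did not pass on the deposited scale, but passed with each array centred on its median, at the same 0.83. It was 0.41 under quantile normalization, 0.56 without arrays 3 and 5 and 0.40 with the 3′ over 5′ covariate, and passed in none of the 3.

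Celf1, a ubiquitous regulator of decay and splicing, lay below the filter in both probe sets. The brighter set had 33.6 to 101.8 with a median of 58.7 in CR mice, and 14.3 to 150.6 with a median of 57.2 in control mice. The dimmer set had 43.9, 18.3, 24.5, 23.3 and 12.2 in CR arrays 1 to 5, against 38.0, 87.5, 24.8, 79.0 and 85.8 in control arrays 1 to 5. In the brighter set all CR values lay within the control range, while in the dimmer 4 of 5 CR mice were below every control mouse. With no filter their relative changes were 0.51 ± 0.63 and -1.11 ± 0.53 (SE), and neither passed.

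Fmr1 did not separate the diets. Its brighter set had 331.5, 233.2, 289.2, 263.2 and 579.8 in CR arrays 1 to 5, against 387.3, 357.2, 262.9, 258.1 and 360.2 in control arrays 1 to 5. Array 5 was above and array 2 below the control range, and the others lay within it. The relative change was 0.16 ± 0.26 (SE). Its dimmer set was at 3.61 to 62.9 in CR and 8.05 to 35.1 in control mice, and was not tested.

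In the fit across all probe sets, 3 of the 9 tested sets passed, all lower, against 7.74% lower over the whole array, and 0 passed as higher, against 4.11%. The CR mice were below the control mice without overlap in the same 3 sets, as in 9.35% of all tested sets, and above them in 1, Celf4, as in 4.96%. Since the genes were picked with these values in view, the counts say nothing about the families. The 3 sets that passed did so in each of the 10 fits that left out 1 array.

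**Figure D3:**
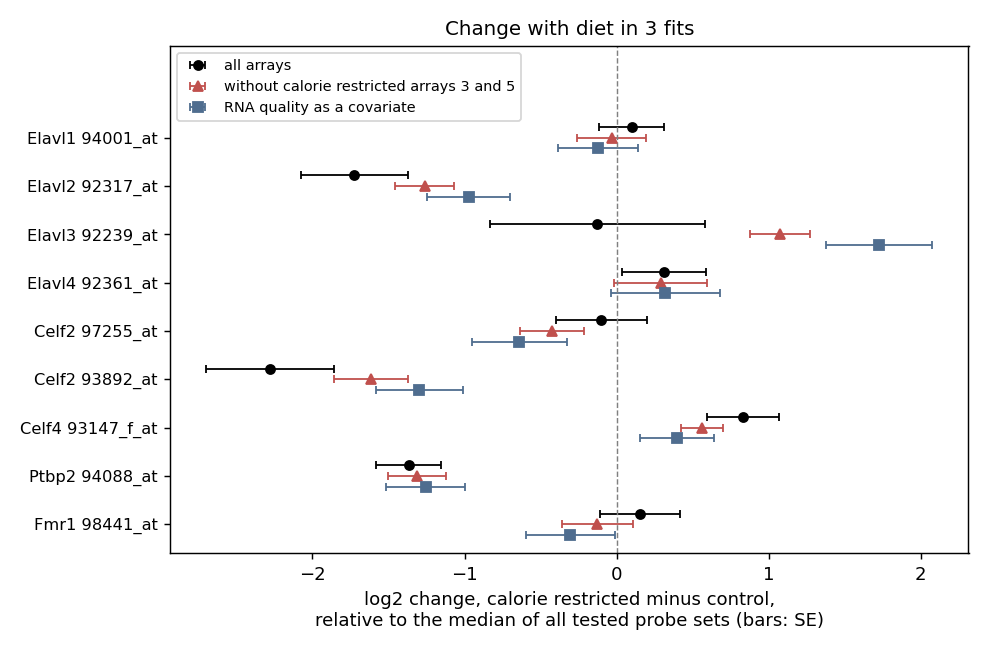
Relative log2 change (horizontal axis, CR minus control, bars SE) of the 9 tested probe sets in 3 fits: all arrays, without CR arrays 3 and 5, and with the 3′ over 5′ ratio as a covariate. Elavl2, the dimmer Celf2 set and Ptbp2 stay below 0 in all 3, and Elavl3 moves from -0.13 to 1.08 and 1.73.

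The spread among mice was itself unequal. In 8 of the 9 tested sets, all but Elavl1, the SD of log2 signal was larger in CR than in control mice, as it was in 76% of the 7453 sets. CR array 5 held the highest or lowest value of the 10 arrays in 10 of the 13 sets, 4 highest and 6 lowest. Over all 7453 tested sets it did so in 52.6%, and no other array in more than 23.4%. The 4 highest were Celf4, the brighter Celf2 and Fmr1 sets and the dimmer Ptbp2 set. The 6 lowest were Elavl2, Elavl3, the brighter Ptbp2 set and the dimmer Celf2, Celf1 and Fmr1 sets.

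**Figure D4:**
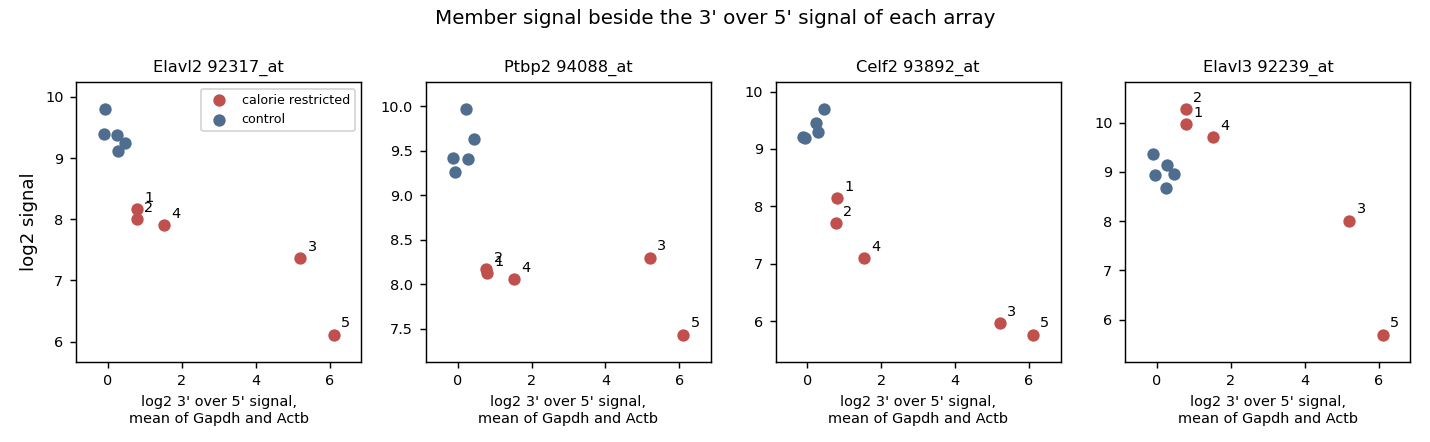
Log2 signal (vertical axes, each with its own range) of Elavl2, Ptbp2 (brighter set), Celf2 (dimmer set) and Elavl3 against the log2 ratio of 3′ to 5′ signal, averaged over Gapdh and Actb (horizontal axis), in 5 CR mice, numbered, and 5 control mice. CR arrays 3 and 5 stand at ratios of 5.20 and 6.11. Ptbp2 is about as low in mice 1, 2 and 4 as in mouse 3, and is lowest in mouse 5. Elavl3 is above the control mice in 1, 2 and 4 and below them in 3 and 5.

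Beside the families, 21 of 49 listed RNA-binding genes of splicing, decay and transport were tested. Here and in the lists that follow, each gene is counted by 1 probe set, the one with the highest mean log2 signal. The counts stand beside 4.11% higher and 7.74% lower over all tested sets. Of these 0 rose, 1 fell and 20 did not pass, with a median relative change of 0.38, against 0 for all tested sets by construction. The one that fell was Zfp36, or tristetraprolin, which drives decay of the AU-rich messages that Elavl proteins bind. Zfp36 changed by -1.89 ± 0.46 (SE; limma adjusted p = 0.020), with a log2 mean of 6.22 in CR mice, below the filter value of 6.85, so that it was tested only through its control level, and 8.27 in control mice. Nearest to passing among the others were Zfp36l2, a relative of Zfp36, at 1.22 ± 0.35 and Pcbp2, a poly(C)-binding protein, at 0.80 ± 0.23 (SE; limma adjusted p = 0.0662 and 0.0861). Next was Pcbp4, in the other direction, at -0.88 ± 0.38 (SE, limma adjusted p = 0.0874). Without arrays 3 and 5 Zfp36l2, Pcbp2 and Pcbp4 had 0.70, 0.44 and -0.34, and none of them passed. Zfp36l2, Qk, Tardbp and Matr3 also had sets that went the other way, and 1 of 2 other Matr3 sets was called, as lower. Ptbp3, the remaining Ptbp paralog on the array, had -0.04 ± 0.35 (SE). Without arrays 3 and 5 the list also had 0 higher and 1 lower, at a median of 0.16.

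Of 14 messages known as Elavl targets, 8 were tested, 2 rose, 0 fell and 6 did not pass, with a median of 0.08. Marcks, a membrane-bound substrate of protein kinase C, rose by 1.07 ± 0.21 (SE; limma adjusted p = 0.0205), with no overlap between diets. Fos, an activity-induced transcription factor, rose by 1.17 ± 0.30 (SE; limma adjusted p = 0.0451), and had 0.99 without arrays 3 and 5, where it did not pass. Gap43, of growing axons, had 0.81 ± 0.22 (SE) and did not pass. Ache, Cdkn1a and Ccnd1 went the other way, at -0.56, -0.62 and -0.29, and did not pass. For Ccnd1 all CR mice were below all control mice. No relation between these messages and Elavl2 was tested.

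Of 10 messages that FMRP binds, 5 were tested, 0 rose and 1 fell, at a median of -0.87. That one was Kcnc1, a fast potassium channel, at -0.87 ± 0.29 (SE; limma adjusted p = 0.0394), with no overlap between diets. Its log2 mean was 6.81 in CR mice, below the filter value of 6.85, and 7.84 in control mice, so it too was tested only through its control level. Kcnd2, another potassium channel, had 0.06 and did not pass by the set counted, while its other tested set was called lower. Camk2a and Dlg4, which encode a synaptic kinase and the scaffold PSD-95, had -2.54 ± 1.10 and -1.52 ± 1.09 (SE), with wide spread, and did not pass. The log2 mean of Camk2a was 6.39 in CR mice, below the filter, and 9.08 in control mice. Camk2a was thus tested only through its control level. Dlg4 had 0.51 without arrays 3 and 5. Of 9 genes whose exons Ptbp proteins regulate, 5 were tested, 0 rose and 1 fell, at a median of 0.14. It was Cacna1c, an L-type calcium channel, at -0.48 ± 0.19 (SE; limma adjusted p = 0.0496), which had -0.46 and did not pass without arrays 3 and 5. These probe sets measure levels and not the use of exons.

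Neuronal markers moved both ways in the same arrays. Among 11 tested pan-neuronal genes 1 rose, Thy1, and 3 fell, Syt1, Nefl and Map2, with a median of 0.28. The summed signal of all 12 on the array was 57936 to 69778 in CR and 46775 to 62955 in control mice, which overlap. Syt1 had -3.40 ± 0.72 and Nefl -1.01 ± 0.32 (SE), both without overlap between diets. Without arrays 3 and 5 they had -2.26 and -0.76, and both still passed. Map2, a dendritic microtubule protein, fell by 2.83 on the log2 scale, with an SD of 2.34 in CR and 0.25 in control mice, and did not pass without arrays 3 and 5. Its log2 mean was 5.90 in CR mice, below the filter, and 8.88 in control mice, so it was tested only through its control level. Thy1 did not pass there either, and Uchl1, a neuronal ubiquitin hydrolase, was then the 1 called higher. Nefm lay below the filter. Of 8 hippocampal neuron markers tested 0 rose and 1 fell, at a median of -0.64. It was Neurod6, a transcription factor of pyramidal neurons, at -1.11 ± 0.34 (SE). Only Wfs1, at 0.20, had a change above 0. Neurod1, Neurod2, Neurod6, Wfs1, Dsp and Nrgn had log2 means above the filter in both diets, while Prox1, of granule cells, was below it. Camk2a and Tdo2 were tested only through their control level. Their log2 means were 6.39 and 6.67 in CR mice, and 9.08 and 7.61 in control mice. The summed signal of the 9 on the array was 3377 to 6777 in CR and 4832 to 8963 in control mice.

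Markers of other cell types were counted in the same way. Astrocyte genes had 0 higher and 3 lower of 8 tested, microglial genes 0 and 2 of 7, oligodendrocyte genes 0 and 3 of 7, endothelial genes 0 and 0 of 4 and choroid plexus genes 0 and 2 of 4. Over all tested sets, 4.11% were higher and 7.74% lower. The list medians, in the same order, were -0.05, -0.71, -0.64, 0.34 and -1.49. The astrocyte genes called lower were Aqp4, Atp1b2 and Fgfr3, the microglial genes Cx3cr1 and Cd68, the oligodendrocyte genes Mal, Cldn11 and Ugt8a, and the choroid plexus genes Folr1 and Foxj1. Of these, Atp1b2 (6.80 in CR and 9.08 in control mice), Fgfr3 (5.94 in CR and 8.05 in control mice) and Ugt8a (6.16 in CR and 8.02 in control mice) had a log2 mean below the filter in CR mice and were tested only through their control level. Mobp, a myelin gene, had 0.87 and did not pass by the set counted, while its 3 other tested sets were all called lower. Among microglial genes that did not pass, Aif1, Tyrobp and Csf1r had 1.31, 0.73 and 0.43, and C1qa and C1qb -2.10 and -0.86. Aif1 was higher in every CR mouse than in all control mice. Its log2 mean was 6.49 in control mice, below the filter, and 7.65 in CR mice, so it was tested only through its CR level. Without arrays 3 and 5 the microglial and oligodendrocyte lists had 2 lower each, and the endothelial and choroid plexus lists 0. The astrocyte list then had 3 lower and 1 higher, Aldoc. The list medians were then -0.14, -0.05, -0.28, 0.61 and -1.65, in the order used above. Summed signals overlapped between diets for microglial, oligodendrocyte, endothelial and choroid plexus genes. They were 3842 to 6504 in CR and 5493 to 7893 in control mice for microglia, and 19333 to 27496 in CR and 23379 to 25827 in control mice for oligodendrocytes. Endothelial sums were 1164 to 1870 in CR and 1081 to 1503 in control mice, and choroid plexus sums 947 to 15398 in CR and 3278 to 11720 in control mice. Astrocyte sums were 22611 to 29062 in CR and 16896 to 22290 in control mice and did not overlap. Itgam, Cnp, Tek, Cdh5 and Aqp1 lay below the filter. The part of cell makeup in the changes of Ptbp2, Elavl2 and Celf2 was not tested.

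Some genes had nearly the profile of Ptbp2 or Celf2, the members with the smallest p, over the 10 arrays. Likeness was the root mean square difference of log2 signals after each gene was centred on its own mean. Nearest to Ptbp2 were B3galt2 at 0.23, Atp5d at 0.26 and Pds5b at 0.27, against a median of 0.86 over 6734 named sets. Nearest to the dimmer Celf2 set were Npr3 at 0.30, Ppm1b at 0.37 and Atp8a1 at 0.42, against a median of 1.39 over 6733. Picked as the nearest, these genes lie below the medians by construction, and their likeness was not tested. B3galt2 encodes a galactosyltransferase and changed by -1.30, and Pds5b, a cohesin regulator, by -1.11, with a log2 mean of 6.72 in CR mice, below the filter value of 6.85, and 7.99 in control mice. Npr3, the clearance receptor of natriuretic peptides, changed by -1.85, with a log2 mean of 5.85 in CR mice, below the filter value of 6.85, and 7.85 in control mice.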

How the data were processed

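The deposited table holds 1 intensity per probe set and array on a linear scale, computed by the authors with MAS5, per the submitters' processing notes, which name no version or settings. In it the mean of each array without the lowest and highest 2% was 500. Labelling used biotin, per the labels' protocols, and no raw images or detection calls were analysed here. Before log2, 41 of 124880 values lay under 1 and were raised to 1. The 66 control probe sets and those with a mean log2 below the 40th percentile (6.85) were left out, leaving 7453, 9 of them of the genes described.

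Genes were named from the platform annotation, 1 symbol for 10833 probe sets, 10817 of them matched to RefSeq by gene number. The probe sets are described without genome positions. Diets were compared in limma 3.58.1 (R 4.3.3) with lmFit, eBayes and a variance trend, with Benjamini-Hochberg adjustment over 7453. The number of arrays, 5 per diet, limits the precision, and the labels give 1 mouse per array. Member genes, gene lists, tests and alternatives were chosen with earlier results of these data known. Named were all member sets, and of each of 11 lists the genes that passed and otherwise those with the smallest p. Of these the text gives a selection made after their values were seen. Genes named for other reasons (Ptbp3, Zfp36l2, Pcbp2, Pcbp4, Gap43, Ache, Cdkn1a, Ccnd1, Camk2a, Dlg4, Qk, Tardbp, Matr3, Kcnd2, Mobp, Uchl1, Aldoc, Wfs1, Neurod1, Neurod2, Nrgn, Tdo2, Dsp, Aif1, Tyrobp, Csf1r, C1qa, C1qb and those below the filter) were also chosen after. In 11 other settings the normalization, filter, offset, variance model, weights, covariates, replicate block or arrays were changed, and each of 10 arrays was left out in turn.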

Additional observations from a re-analysis of the deposited data

Results flagged for a closer look

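Among 26 groups of 5 arrays, 13 probe sets in each diet, 3 held an array whose gap to its neighbour was over 0.71 of the group's range. Chance does so in about 1 group in 20. Elavl1 was highest in CR array 5, at a signal of 412.0, with a gap of 0.763 of the range. The brighter Ptbp2 set was lowest in CR array 5, at 172.7, with a gap of 0.724. The brighter Celf2 set was highest in control array 3, at 1145, with a gap of 0.795.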

How the results depend on the processing

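Ptbp2, Elavl2 and the dimmer Celf2 set stayed lower and past the threshold in every alternative that measured them but one. With the 3′ over 5′ ratio and spike-in signal both as covariates limma called 0 of 7453 probe sets, although 907 had an unadjusted p below 0.05, and 0 of the 9 tested sets of these genes. There the changes were -1.66, -0.59 and -1.92, and diet is hardly separable from the covariates (R2 of 0.851). The stricter filter dropped the dimmer Celf2 set and Elavl4, and 2 sets passed. Leaving out 1 array at a time, the changes ran from -1.43 to -1.25 for Ptbp2, -1.89 to -1.41 for Elavl2 and -2.58 to -2.02 for the dimmer Celf2 set, and 3 sets passed each time.

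Over the whole array 883 passed, but 333 with the 3′ over 5′ covariate, 540 with the replicate block, and 253 to 1251 without 1 array: 349 and 561 without CR arrays 3 and 4, and 421, 253, 274, 301 and 553 without control arrays 1 to 5. The replicate block changed no call among these genes. The diets share replicate numbers, but deviations of same-numbered arrays correlated at -0.08 to 0.17 over probe sets, so the numbers were not taken as pairs. Celf4 passed with centred arrays only.

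Directions turned for sets that did not pass. Elavl3 had 0.61 with array weights, 1.73 with the 3′ over 5′ covariate, 1.98 with both covariates, 1.08 without CR arrays 3 and 5, and -0.50 to 0.60 without 1 array. In the same order Elavl1 had -0.049, -0.12, -0.76, -0.032 and -0.027 to 0.21, and the brighter Fmr1 set had -0.079, -0.30, -0.86, -0.13 and -0.087 to 0.28. Elavl4 had -0.69 with both covariates. The brighter Celf2 set had -0.42 to 0.088 without 1 array, the upper end without CR array 1. The cause of these turns was not tested.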
